A study of Mus musculus with 6 samples.

Results

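The genes described here are the subunits of the oxidative phosphorylation machinery, the 4 respiratory chain complexes (I to IV) and the ATP synthase (complex V) of the inner mitochondrial membrane. They were taken by name from the feature list of a single-cell RNA experiment on mouse embryos: every symbol that starts with Ndufa, Ndufb, Ndufc, Ndufs, Ndufv, Uqcr or Atp5, the symbols Sdha to Sdhd and Cyc1, the Cox4 to Cox8 families, and the mt-Nd, mt-Co, mt-Atp and mt-Cytb genes. The rule found 108 of 32285 genes. Of these, 95 are nuclear and 13 lie on the mitochondrial chromosome. By name the nuclear members comprise 37 genes of complex I, 8 assembly factors of complex I (the Ndufaf genes, which are not subunits of the finished enzyme), 4 of complex II, 9 of complex III, 20 of complex IV and 17 of complex V. Ndufa4 and Ndufa4l2 carry complex I names but are counted with complex IV, where Ndufa4 is now placed. The mitochondrial members comprise 7 genes of complex I, 1 of complex III, 3 of complex IV and 2 of complex V, and no member was without a UMI.

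The study dissected the heart-forming and pharyngeal region from wild-type C57BL/6 embryos at E10.5, midway through gestation. In the vehicle group (3 samples) the mother had received vehicle before mating. In the streptozotocin group (3 samples) she had received streptozotocin, a toxin of insulin-producing cells that is used to model maternal diabetes. All fathers had normal blood glucose, and all samples were processed with a droplet 3′ RNA kit (10x Chromium). The 1 deposited matrix holds all 6 libraries, told apart by a number at the end of each cell barcode, and no label or file used here pairs those numbers with samples. Streptozotocin and vehicle were therefore not compared, the matrix was treated as 1 sample, and no p-value is given. Libraries are called 1 to 6 by that number, and each was read by itself to show how far a value repeats.

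Complexes I, III and IV pass electrons from NADH to oxygen and pump protons, complex II feeds in electrons from succinate, and complex V uses the proton gradient to make ATP. Most subunits are encoded in the nucleus, while the mitochondrial genome supplies a core set to every complex except II. Heart muscle is known for its dense mitochondria, and several subunits of complex IV exist as a widely expressed form and a form restricted to heart and skeletal muscle or to other tissues.

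The matrix held 1359919109 UMIs (unique transcript tags) in 53362 barcodes, with 200462921 to 248426458 UMIs a library. A barcode was kept as a cell with at least 2500 genes and at most 10% of UMIs from mt- genes, which left 35962 cells, 4903 to 7136 a library, with a median of 30533 to 35634 UMIs. The 13 mt- members are the only mt- genes in the feature list, so the 10% limit acts on the members themselves: it removed 84 cardiomyocyte-gated cells, 11 endothelial ones and 0 to 5 in the other classes. Cell classes were gated by marker genes, and 14192 cells (39.5%) passed exactly 1 gate, 21004 none and 766 several, which were left out. In the cardiomyocyte class (3222 cells) all 12 markers were at least 2 times higher than elsewhere, and their summed level was 23847 CPM (UMIs of a gene or list for each 1000000 UMIs) against 245 CPM. In the neural crest mesenchyme class 8 of 10 markers were that much higher, and in the smooth muscle class 4 of 7. Libraries share 2777 barcode sequences, and 2890 kept cells carry one. Library 1 differed from the others in Xist, at 383 CPM against at most 0.342.

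Levels below are UMIs summed over the cells of a class, as CPM of all UMIs of those cells. Intervals in parentheses are exact 95% intervals for counting error alone. Because each tag stands for 1 molecule near its 3′ end, CPM needs no length scaling between genes.

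Cardiomyocytes held far more nuclear message for this machinery than any other class. The 95 nuclear members summed to 52236 CPM (52199 to 52273) in cardiomyocytes and to 24390 CPM in all other gated cells, a ratio of 2.14. In cardiomyocytes the 6 libraries gave 52435, 51254, 51306, 51567, 54413 and 52162 CPM, and in the other gated cells they ranged from 22772 to 25496 CPM. The ranges do not overlap, and the ratio within a library ran from 2.07 to 2.25. Among single cells the cardiomyocyte median was 53026 CPM (quartiles 44328 and 60214), and 2904 cardiomyocytes (90.1%) lay above 30912 CPM, the 95th percentile of the other gated cells.

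Outside the heart muscle the classes were close to each other. Among the 14 classes with at least 100 cells, endothelium was next at 27092 CPM (libraries 26017 to 28118). Paraxial mesoderm (25999 CPM), branchiomeric muscle (25926 CPM), second heart field and pharyngeal mesoderm (25673 CPM) and endocardial cushion mesenchyme (25476 CPM) came after it. Epicardium (24981 CPM), neural crest mesenchyme (24967 CPM), neural crest and glia (24964 CPM), smooth muscle (24957 CPM) and neuron (24866 CPM) followed closely. Surface ectoderm (23966 CPM), endoderm (23452 CPM) and erythroid cells (19685 CPM) were lowest, and the 21004 ungated cells stood at 25492 CPM. Cardiomyocytes exceeded endothelium in 6 of 6 libraries, endothelium exceeded paraxial mesoderm in 4 of 4 that held enough cells, and endoderm exceeded erythroid cells in 6 of 6. Between these, the library ranges of neighbours in the order overlapped. Surface ectoderm exceeded endoderm in 5 of 6 libraries, neuron exceeded surface ectoderm in 3 of 4, and branchiomeric muscle exceeded second heart field mesoderm in 2 of 2. Other neighbours were more even: second heart field mesoderm exceeded cushion mesenchyme in 3 of 6, and neural crest and glia exceeded smooth muscle in 2 of 5. The 12 ordered classes other than cardiomyocytes and erythroid cells spanned 23452 to 27092 CPM, and cardiomyocytes stood at 2.09 times their median and 1.93 times the highest. The smaller classes, hepatocyte (12 cells), megakaryocyte (48) and myeloid (50), were not ordered. With hemoglobin left out of the denominator they stood at 29000, 28650 and 28021 CPM, above endothelium at 27096 CPM. Hemoglobin took at most 0.369% of their UMIs (megakaryocyte), so this order does not come from that denominator.

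The low erythroid value shares its denominator with globin. Hemoglobin genes took 40.3% of erythroid UMIs, and with hemoglobin left out of the denominator the erythroid nuclear sum was 32971 CPM, above every other class except cardiomyocytes. Of the 91 nuclear members with a mean class level of at least 10 CPM, 61 had their lowest class CPM in erythroid cells.

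**Figure D1:**
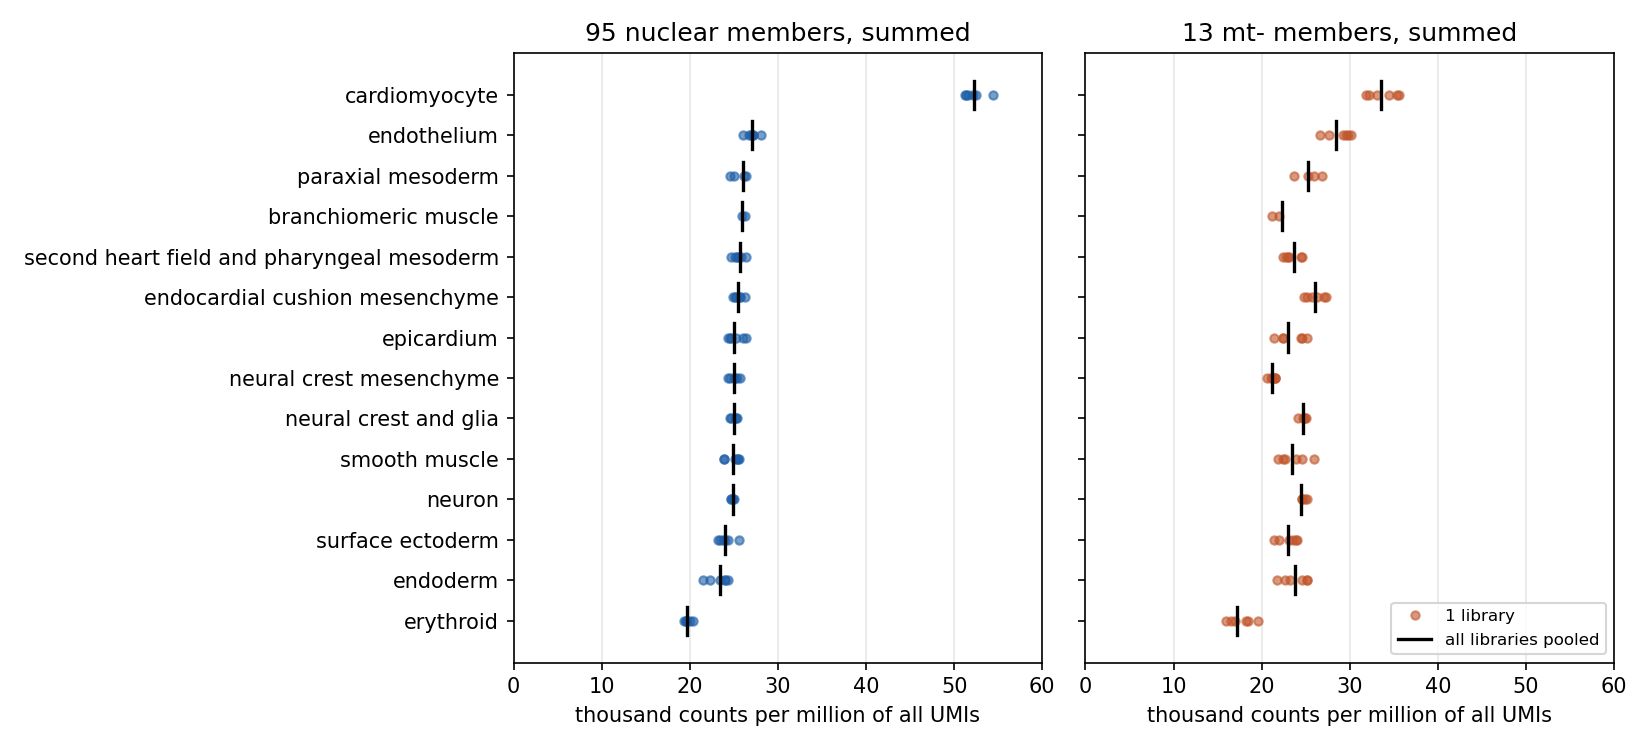
Summed level (CPM) of the 95 nuclear members (left) and the 13 mitochondrial members (right) in the 14 classes with at least 100 cells; black lines are all libraries pooled and points single libraries with at least 20 cells of the class. Cardiomyocytes stand apart in the nuclear sum (52236 CPM against 27092 CPM in endothelium) and by less in the mitochondrial sum (33539 against 28474 CPM).

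The mitochondrial members were also highest in cardiomyocytes, with a smaller margin. Their sum was 33539 CPM in cardiomyocytes (31840, 32171, 33102, 34415, 35581 and 35358 CPM in libraries 1 to 6) and 22904 CPM in the other gated cells, a ratio of 1.46 (libraries 1.40 to 1.58). Endothelium was second at 28474 CPM (26585 to 30178), so every cardiomyocyte library lay above every endothelial one, at 1.18 times the pooled level. Cushion mesenchyme followed at 26033 CPM, paraxial mesoderm at 25240 CPM, and neural crest mesenchyme (21179 CPM) and erythroid cells (17197 CPM) were lowest. Both ranks depend on globin in the denominator: with hemoglobin left out, erythroid cells stood at 28805 CPM, next to endothelium at 28478 CPM, and neural crest mesenchyme was the lowest class. Libraries 4, 5 and 6 were higher than libraries 1, 2 and 3 both in cardiomyocytes and in the other gated cells (24601, 24307 and 23420 CPM against 22085, 22678 and 20944 CPM). The part of a library difference in these levels was not tested.

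Cardiomyocytes therefore had the lowest mitochondrial message for each nuclear one. The mitochondrial sum divided by the nuclear sum was 0.642 in cardiomyocytes (libraries 0.607 to 0.678), and 0.848 in neural crest mesenchyme to 1.05 in endothelium (0.996 to 1.12) in the other classes. Endothelium was above the pooled rest for both genomes. Over the other gated cells without cardiomyocytes and erythroid cells, the nuclear sum was 1.08 times and the mitochondrial sum 1.23 times as high, each above 1 in 6 of 6 libraries. Across single cells the Spearman correlation of the nuclear and the mitochondrial sum was 0.36 in the 3222 cardiomyocytes, 0.39 in the 1445 erythroid cells and -0.49 in the 668 endoderm cells. The points share each cell's UMI total as denominator, and cells of 1 library share its depth.

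Gene by gene, nearly all nuclear members took part in the cardiomyocyte level. A member is called higher or lower here when its pooled CPM in cardiomyocytes is at least 1.5 times above or below that in the other gated cells, and 104 of 108 members had the mean class level of at least 10 CPM asked for. Of the 91 nuclear members with that level, 84 were higher and 1 lower, where 12.1% of all 8986 such genes were higher and 22.4% lower. Their median ratio was 2.04, against 0.878 over all these genes. Cox6a2 and Ndufa4l2 had that level only through their highest class (cardiomyocytes and neuron), with means of 0.907 and 3.72 CPM over the other 13. The filter thus let Cox6a2 in where it is high, and its ratio is a description. Of the 89 left without these 2, 83 were higher and 1 lower, where 11.2% of the 8496 genes that reach the level without their highest class were higher and 20.7% lower. Of the 91, 88 were above 1 in all 6 libraries and 86 had their highest class level in cardiomyocytes. Over all 104 members with the level, those nearest the fold were the mitochondrial mt-Nd1 at 1.503 and mt-Nd4l at 1.483. The 4 nuclear members under the level were Cox7a1, just below it at a mean of 9.39 CPM (the next above was at 12.9 CPM), Cox7b2, Cox8b and Cox8c.

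Without erythroid cells among the others, 83 nuclear members were higher and 1, Ndufa4l2, lower (9.47% and 32.1% of all genes). Of the 89 left without Cox6a2 and Ndufa4l2, 82 were higher and none lower (8.55% and 30.9%). The ratio of the nuclear sums without erythroid cells was 2.05. With erythroid cells kept and hemoglobin left out of the denominator, it was 1.98.

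**Figure D2:**
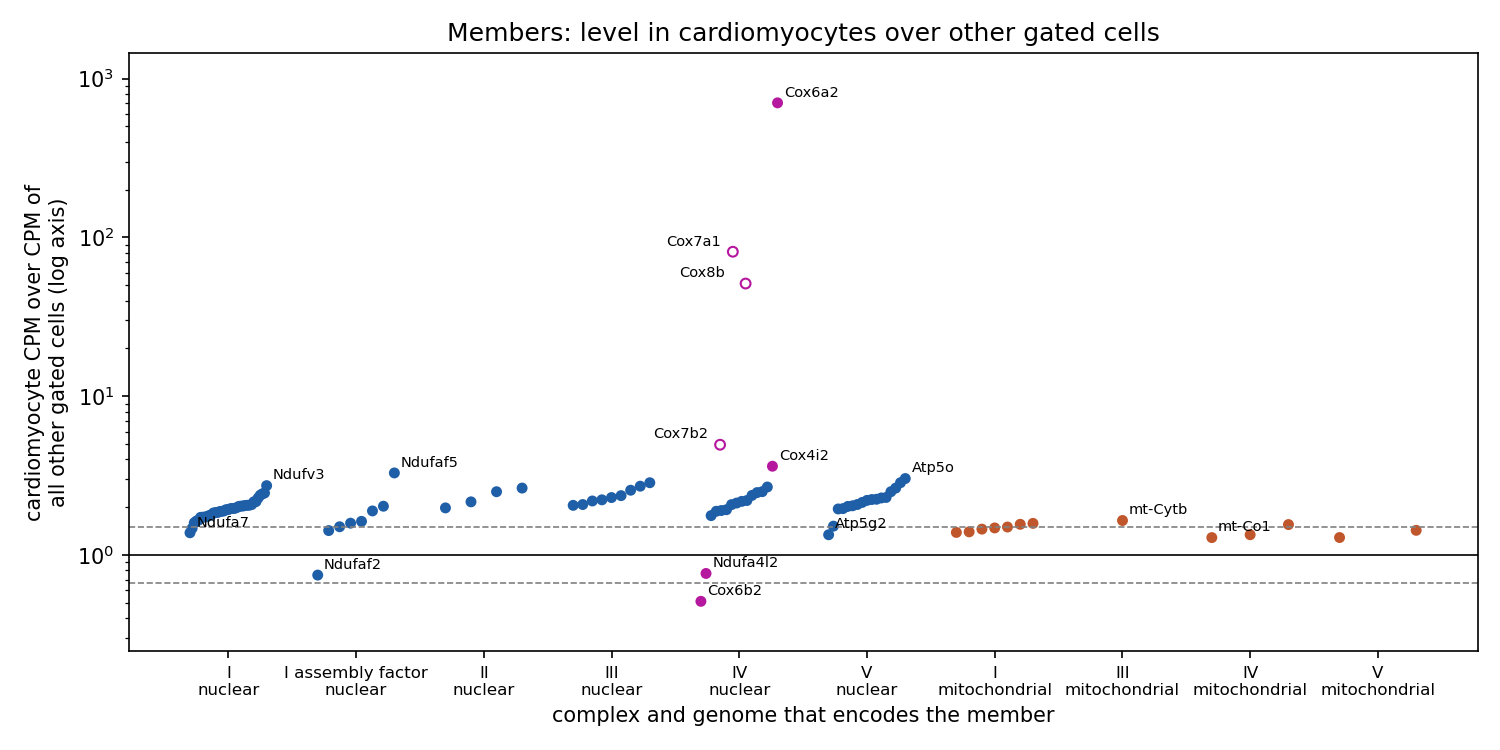
Each point is 1 member: its CPM in cardiomyocytes over that in all other gated cells (log axis), grouped by complex and by the genome that encodes it, with open circles for members under a mean class level of 10 CPM, restricted isoforms in purple and dashed lines at 1.5-fold. The 79 widely expressed nuclear subunits lie between 1.34 and 3.03, and mitochondrial members between 1.29 and 1.66. The restricted isoforms Cox6a2, Cox7a1 and Cox8b of complex IV lie far above. Cox7b2 (4.95) and Cox4i2 lie above the widely expressed range by less.

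Complex I oxidises NADH and is the largest of the complexes. Of its 37 nuclear genes 35 were higher, where 12.1% of all genes were, with a median ratio of 1.93. The most abundant, Ndufab1, the mitochondrial acyl carrier protein, stood at 754 CPM in cardiomyocytes and 370.0 CPM in the others. Ndufv3, an accessory subunit of the NADH-binding arm, had the highest ratio of 2.74, with 277 to 316 CPM in the cardiomyocyte libraries and 97.9 to 116 CPM in the others. Ndufa7, an accessory subunit, had the lowest at 1.38, and its libraries still did not overlap (384 to 477 against 273 to 345 CPM). Ndufa2 was the other gene under the fold, at 1.47.

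The Ndufaf assembly factors, which build complex I, had ratios from 0.749 to 3.29. Of 8, 6 were higher, where 12.1% of all genes were, with a median of 1.61, while Ndufaf1 stood at 1.43. Without erythroid cells 5 of 8 were higher, where 9.47% of all genes were. Ndufaf5 reached 39.97 CPM against 12.1 CPM, a ratio of 3.29 (2.92 to 3.99 over libraries). Ndufaf2 (chr13:108002715-108158623) ran the other way. It gave 79.5, 71.6, 73.3, 76.7, 78.7 and 72.8 CPM in the cardiomyocyte libraries and 91.4 to 108.5 CPM in the others, a ratio of 0.749 that does not reach the fold. Its highest class was neural crest mesenchyme at 145 CPM, followed by neural crest and glia at 135 CPM. Ndufaf2 was also the most abundant gene of the group over all kept cells, at 107 CPM.

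Complex II, succinate dehydrogenase, is shared with the citrate cycle and has no mitochondrial gene. All 4 genes were higher, where 12.1% of all genes were. The ratio was 2.64 for Sdhd, a membrane anchor, and 2.51 for Sdhb, the iron-sulfur subunit. It was 2.16 for Sdhc, the other anchor, and 1.98 for Sdha, the flavoprotein. For Sdhd the cardiomyocyte libraries gave 257, 296, 320, 294, 288 and 291 CPM and the others 93.3 to 118 CPM. These values do not overlap.

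Complex III passes electrons from ubiquinol to cytochrome c. All 9 of its nuclear genes were higher, where 12.1% of all genes were, with a median of 2.30. Cyc1, the cytochrome c1 subunit, was highest at 2.86, with 569, 520, 592, 514, 528 and 523 CPM in the cardiomyocyte libraries and 185 to 196 CPM in the others. Uqcrc1, a core subunit, was lowest at 2.06. Uqcrh, the hinge subunit, was the most abundant, at 1127 CPM against 489 CPM.

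Complex V genes were higher in 16 of 17 cases, where 12.1% of all genes were, with a median of 2.21. Atp5o, a subunit of the stalk that holds the catalytic head, had the highest ratio at 3.03, with 1347 to 1442 CPM against 446 to 477 CPM over libraries. Atp5b, the catalytic beta subunit, was the most abundant, at 1563 CPM against 683 CPM.

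The exception in complex V was Atp5g2, at 920 CPM against 685 CPM (1.34). Atp5g1, Atp5g2 and Atp5g3 encode the same mature rotor ring subunit from 3 genes, and near-identical sequence between them could have split reads. In cardiomyocytes Atp5g1 gave 42.2% of the 3 genes' UMIs, Atp5g2 27.1% and Atp5g3 30.7%. In the other gated cells the shares were 34.1%, 43.1% and 22.9%, and in surface ectoderm Atp5g2 gave 52.4%. The Atp5g2 share was 26.7% to 27.9% in the cardiomyocyte libraries and 41.2% to 44.0% in the others, so the shift repeats in each library. Erythroid cells also had a high Atp5g1 share, at 44.6%, with 32.7% from Atp5g2.

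Complex IV, cytochrome c oxidase, hands electrons to oxygen. Of its 20 nuclear genes 16 had the mean level asked for, of which 14 were higher (12.1% of all genes) and Cox6b2 was lower (22.4% of all genes). The 14 include Cox6a2, which had that level only through cardiomyocytes. Among its widely expressed subunits Cox5a had the highest ratio at 2.68 (1458 to 1532 CPM against 509 to 597 CPM over libraries) and Cox6a1 the lowest at 1.77. Cox4i1, the largest nuclear subunit, was the most abundant member of the nuclear set over all kept cells at 919 CPM, with 1635 CPM in cardiomyocytes and 786 CPM in the others. The 8 tissue-restricted isoforms, all in this complex, behaved differently from the rest and from each other.

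Cox6a2 (chr7:128205435-128206387), the heart and skeletal muscle form of subunit 6a, had the highest ratio of all members. It gave 484, 469, 355, 495, 580.4 and 499.7 CPM in the cardiomyocyte libraries and 0.445 to 0.953 CPM in the others, a ratio of 704 (633 to 784). In cardiomyocytes it supplied 53.9% (53.6 to 54.2) of the UMIs of the Cox6a1 and Cox6a2 pair, and 0.294% in the other gated cells. The libraries gave 53.2%, 52.9%, 44.6%, 55.2%, 58.7% and 55.6%, with library 3 low in both CPM and share. At least 1 UMI was seen in 2638 of 3222 cardiomyocytes (81.9%, median 41356 UMIs a cell) and in 2.13% of endothelial cells (median 39099 UMIs).

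Among the other ordered classes Cox6a2 stood at 0.155 to 1.39 CPM (branchiomeric muscle) outside endoderm, which held 5.90 CPM: 137 UMIs in 61 of 668 cells (9.13%), at most 7 in 1 cell, in all 6 libraries. The 50 myeloid cells, too few for the class order, gave 4.48 CPM, from 15 UMIs. For each 1000 UMIs of Actc1, the abundant cardiac actin, cardiomyocytes held 44.9 Cox6a2 UMIs, endoderm 692 (552 to 865), smooth muscle 1.26 (0.603 to 2.31) and endothelium 56.5 (41.5 to 75.4). The endothelial interval includes the cardiomyocyte value, while the endoderm value lies above it and the smooth muscle value below. The part of RNA from other cells in these counts was not tested.

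Cox7a1 (chr7:30184144-30186078), the muscle form of subunit 7a, was also highest in cardiomyocytes, at a lower level. Its cardiomyocyte libraries gave 104, 115, 88.1, 110.3, 128 and 116 CPM and the others 1.15 to 1.59 CPM, a ratio of 81.3 (75.3 to 87.8). It supplied 9.70% of the Cox7a1 and Cox7a2 pair in cardiomyocytes (libraries 8.04% to 10.6%) and 0.287% in the others. A UMI was seen in 80.4% of cardiomyocytes and in 4.66% of endothelial cells. Neuron (4.84 CPM) and epicardium (3.53 CPM, 237 UMIs in 14.3% of its cells) came next. For each 1000 UMIs of Actc1, cardiomyocytes held 10.3 Cox7a1 UMIs and the other gated cells 37.9 (35.1 to 40.9). For Cox6a2 these values were 44.9 and 19.2 (17.2 to 21.3), in the reverse order.

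Cox8b and Cox7b2 were scarce everywhere. Cox8b, the muscle form of subunit 8, reached 2.64 CPM in cardiomyocytes (386 UMIs in 8.75% of cells), 0.139% of its pair with Cox8a. In neuron it stood at 3.59 CPM, from 23 UMIs in 21 of 185 cells, and 9 of the other 12 ordered classes held none, which allows at most 0.695 CPM (3 counts) in the smallest of them, branchiomeric muscle. Cox7b2 stood at 0.902 against 0.182 CPM. Cox8c, the remaining form of subunit 8, had 10 UMIs in all kept cells and none among cardiomyocytes, which allows up to 0.0205 CPM there (3 counts).

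**Figure D3:**
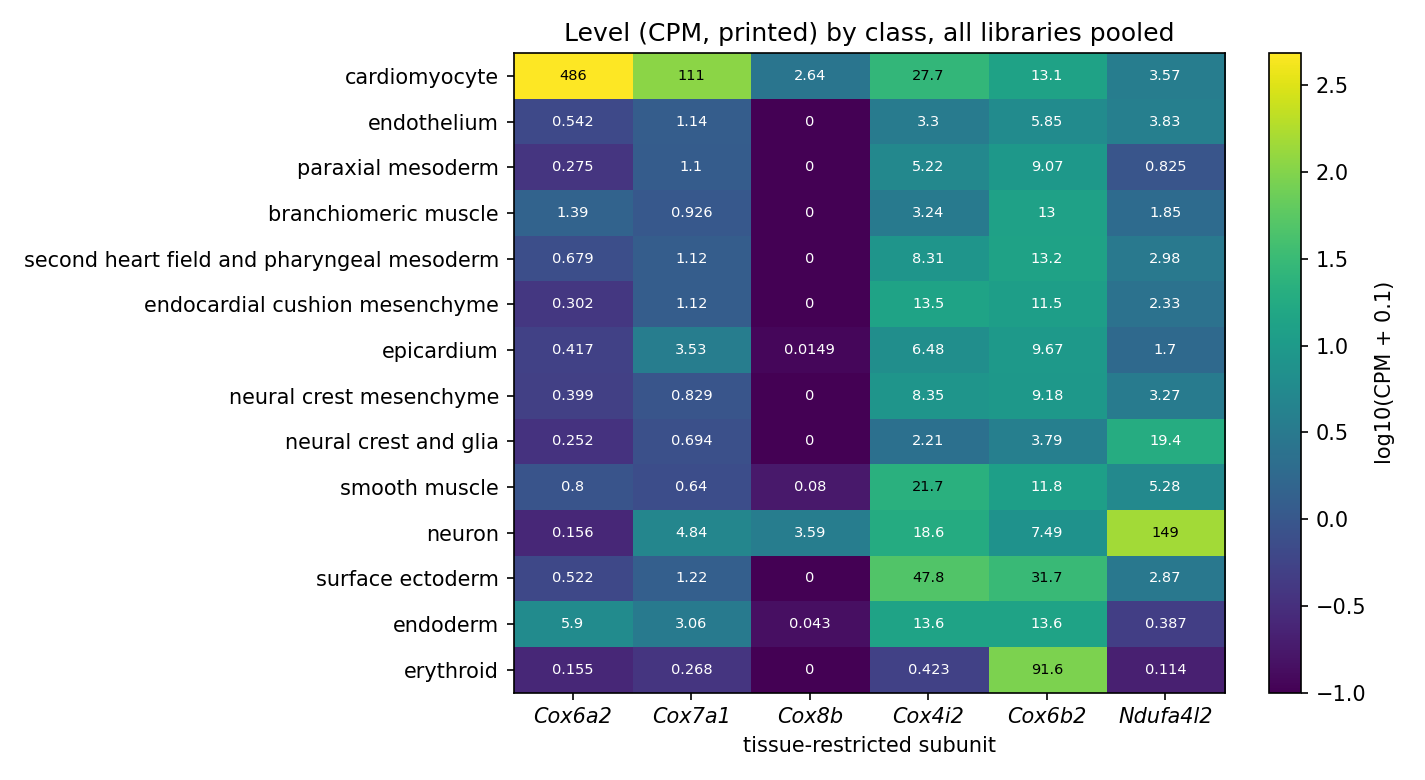
Level of the tissue-restricted complex IV isoforms (columns) in the cell classes (rows), all libraries pooled; each cell prints the CPM and is coloured by log10(CPM + 0.1). Cox6a2 and Cox7a1 peak in cardiomyocytes (486 and 111 CPM), Cox6b2 in erythroid cells (91.6 CPM) and Ndufa4l2 in neuron (149 CPM).

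The other restricted isoforms were highest in other classes. Cox6b2, known as a testis form of subunit 6b, was highest in erythroid cells at 91.6 CPM (libraries 81.4 to 112), with a UMI in 1407 of 1445 cells. There it supplied 19.7% of its pair with Cox6b1 (libraries 18.6% to 22.1%), against 1.29% in cardiomyocytes, 6.67% in surface ectoderm and 5.34% over all non-cardiac gated cells. The 48 megakaryocytes, too few for the class order, gave 43.2 CPM and 7.39% of the pair, with a UMI in 36 of them. The Cox6b2 level of 13.1 CPM in cardiomyocytes gave the ratio of 0.512 that made it the only member called lower. Without erythroid cells that ratio was 1.31.

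Ndufa4l2, a hypoxia-inducible relative of Ndufa4, was highest in neuron at 149 CPM, seen in 136 of 185 cells and 119 to 166 CPM in the 4 libraries with enough cells. It supplied 15.8% of its pair with Ndufa4 there, 0.256% in cardiomyocytes and 0.635% over the other gated cells. Neural crest and glia followed at 19.4 CPM, with libraries from 8.69 to 40.8 CPM. Its cardiomyocyte level was 3.57 CPM against 4.66 CPM in the other gated cells (0.766), and the ratio was 0.622 without erythroid cells. Both levels are below the 10 CPM asked for, which it reached through neuron.

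Cox4i2, a form of subunit 4 known from lung and from low-oxygen conditions, was spread over several classes. Surface ectoderm held 47.8 CPM (libraries 33.7 to 58.6, 5.64% of its pair with Cox4i1), cardiomyocytes 27.7 CPM (19.1 to 32.0, 1.66%), smooth muscle 21.7 CPM and erythroid cells 0.423 CPM. In the myeloid cells it reached 72.6 CPM, with a UMI in 42 of them. Cox4i2 was also called higher in cardiomyocytes. Its ratio over the other gated cells was 3.52 to 3.75 with each library left out in turn.

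Promoters are shown for the isoform pairs with RefSeq entries on both sides, since here a restricted and a widely expressed gene of 1 subunit can be set next to each other. RefSeq promoters (build GRCm38.p6) of 300 bases, 250 before and 50 after the start site, were found for 75 of 95 nuclear members. Printed 5′ to 3′ on the gene's strand, with searched motifs in capitals, they are Cox7a1 (chr7:30183921-30184220, plus strand), Cox7a2 (chr9:79759804-79760103, minus), Cox8b (chr7:140900397-140900696, minus) and Cox8a (chr19:7217567-7217866, minus).
Cox7a1: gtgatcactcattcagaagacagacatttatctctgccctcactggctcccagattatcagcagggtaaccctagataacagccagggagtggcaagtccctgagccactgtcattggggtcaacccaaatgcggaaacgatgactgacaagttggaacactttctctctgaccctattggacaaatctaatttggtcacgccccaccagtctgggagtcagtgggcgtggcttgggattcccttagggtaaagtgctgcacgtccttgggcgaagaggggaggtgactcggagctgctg
Cox7a2: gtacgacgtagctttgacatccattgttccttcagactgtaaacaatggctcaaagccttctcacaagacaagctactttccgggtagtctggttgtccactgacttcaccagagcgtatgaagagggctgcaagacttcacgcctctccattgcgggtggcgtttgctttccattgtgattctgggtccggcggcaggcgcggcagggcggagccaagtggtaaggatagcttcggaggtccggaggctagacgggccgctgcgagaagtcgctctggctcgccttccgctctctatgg
Cox8b: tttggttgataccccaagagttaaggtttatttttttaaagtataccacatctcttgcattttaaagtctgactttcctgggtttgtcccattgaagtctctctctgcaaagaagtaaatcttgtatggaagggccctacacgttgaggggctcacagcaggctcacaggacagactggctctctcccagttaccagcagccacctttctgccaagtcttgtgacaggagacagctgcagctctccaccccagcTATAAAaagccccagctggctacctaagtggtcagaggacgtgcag
Cox8a: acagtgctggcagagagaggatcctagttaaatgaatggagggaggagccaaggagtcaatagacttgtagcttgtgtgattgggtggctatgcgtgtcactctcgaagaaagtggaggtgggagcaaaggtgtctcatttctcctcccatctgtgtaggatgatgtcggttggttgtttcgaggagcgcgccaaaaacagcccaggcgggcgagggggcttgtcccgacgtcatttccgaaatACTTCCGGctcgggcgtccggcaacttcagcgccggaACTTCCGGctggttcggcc

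The restricted promoters held fewer CpG pairs: 7 in Cox7a1 against 20 in Cox7a2, and 2 in Cox8b against 19 in Cox8a. The GC content was 53.0% against 56.7% and 48.3% against 56.0%. Cox8a carried the ETS-like motif CCGGAAGT (as its reverse complement) at bases 245 to 252 and 282 to 289, counted from 1 at the 5′ end. Cox8b carried the TATA-like motif TATAAA at bases 255 to 260. Counted from the annotated start site, the Cox8a matches begin at -6 and 31 and the Cox8b match at 4, after that site.

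The 5 motifs, named for factors known to bind such letters, were searched on both strands. Matches of different motifs did not overlap in any member promoter. The NRF1-like motif, GCGCA and GCGC with any 1 base between them, was in 19 of 75 member promoters (25.3%) and in 4.68% of all 27025. The YY1-like motif AAGATGGCG was in 8 (10.7% against 1.49%), the ERR-like motif TCAAGGTCA in 2 (2.67% against 0.407%), CCGGAAGT in 5 (6.67% against 3.93%) and TATAAA in 8 (10.7% against 14.1%). Member promoters were richer in GC, with a median of 57.7% against 52.7%, and the shares were not matched for it. These motif shares describe the letters only.

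Windows of 30 bases show both ERR-like matches and 3 NRF1-like matches from members at the ends of the cardiomyocyte ratios, with the motif in capitals. They lie at chr2:73911359-73911388 and chr9:50603800-50603829 (both minus strand) for the ERR-like motif, and at chr2:140170652-140170681 (plus), chr16:91931602-91931631 (minus) and chr15:102671070-102671099 (minus) for the NRF1-like motif.
Atp5g3, ERR-like: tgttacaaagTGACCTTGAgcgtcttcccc
Sdhd, ERR-like: tttccgggttgtagagTGACCTTGAgccct
Ndufaf5, NRF1-like: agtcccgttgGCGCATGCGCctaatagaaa
Atp5o, NRF1-like: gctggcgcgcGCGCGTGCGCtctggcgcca
Atp5g2, NRF1-like: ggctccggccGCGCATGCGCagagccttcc

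Atp5g3 and Sdhd, with the ERR-like letters, had cardiomyocyte ratios of 2.86 and 2.64, and both promoters also held an NRF1-like match. The NRF1-like letters occurred in Ndufaf5 (3.29) and Atp5o (3.03) as well as in Atp5g2 (1.34). The median ratio was 1.98 in the 19 members with an NRF1-like match and 2.03 in the 53 without.

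The mitochondrial genes ranged from 1.29 to 1.66 in their cardiomyocyte ratio, all above 1 in 6 of 6 libraries, and 5 of 13 reached the fold, where 12.1% of all genes did. Those were mt-Cytb, the mitochondrial subunit of complex III (1.66), mt-Nd2 (1.58) and mt-Nd6 (1.56) of complex I, mt-Co2 of complex IV (1.56) and mt-Nd1 of complex I (1.503). For mt-Cytb the cardiomyocyte libraries gave 4294, 4386, 4355, 4941, 4977 and 4964 CPM and the others 2394 to 3111 CPM. The remaining ratios were 1.48 for mt-Nd4l, 1.46 for mt-Nd4, 1.40 for mt-Nd3 and 1.39 for mt-Nd5 in complex I, 1.43 for mt-Atp6 and 1.29 for mt-Atp8 in complex V, and 1.34 for mt-Co3 and 1.29 for mt-Co1 in complex IV.

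Of the 13, 11 had their highest class level in cardiomyocytes. The exceptions were mt-Co1, whose 3221 CPM was just under the 3237 CPM of cushion mesenchyme, and mt-Atp8, at 41.9 CPM against 44.0 CPM in surface ectoderm. mt-Atp6 was the most abundant member of all, at 6281 CPM in cardiomyocytes. The mt-Atp8 and mt-Atp6 genes overlap, as do mt-Nd4l and mt-Nd4, and each pair shares a transcript, so their UMIs cannot be told apart by gene with certainty. Without erythroid cells 3 of the 13 reached the fold (9.47% of all genes), and 1 did with hemoglobin left out of the denominator (10.1% of all genes), a count near the background.

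Cardiomyocytes were not uniform. They were split by how many of the 12 gate markers a cell carried with at least 2 UMIs: 6 to 8 (385 cells), 9 to 11 (684) or all 12 (2153). The nuclear sum was 33437 CPM, 44865 CPM and 55397 CPM in that order, and cells with 12 markers exceeded those with 6 to 8 by 1.66 times, in 6 of 6 libraries. The 12 gate markers themselves summed to 6440 CPM in cells with 6 to 8 and 26405 CPM in cells with 12, a ratio of 4.10. The mitochondrial sum went from 25245 to 31086 and 34778 CPM, by 1.38 times, and the ratio of mitochondrial to nuclear sums from 0.755 to 0.693 and 0.628. The Spearman correlation of these sums over single cells was -0.36, 0.24 and 0.38 in that order, against 0.36 over all cardiomyocytes.

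The muscle isoforms differed far more between these cells than the widely expressed subunits. Cox6a2 stood at 34.0, 174 and 588 CPM, with 10.3%, 29.8% and 57.9% of its pair, and Cox7a1 at 20.2, 57.1 and 130 CPM. The widely expressed nuclear subunits of complex IV differed by 1.67 times between the first and the last group. The Atp5g2 share went from 40.9% to 31.2% and 25.8%, and Cox6b2 from 17.9 to 14.4 and 12.4 CPM.

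Depth moved with this split, at a median of 25277, 30524 and 49902 UMIs a cell. With every cell thinned to 10000 UMIs and its class kept, the cardiomyocyte nuclear ratio was 2.08 and the Cox6a2 share 53.6%. The part of depth, or of other cells' RNA, in the split itself was not tested.

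**Figure D4:**
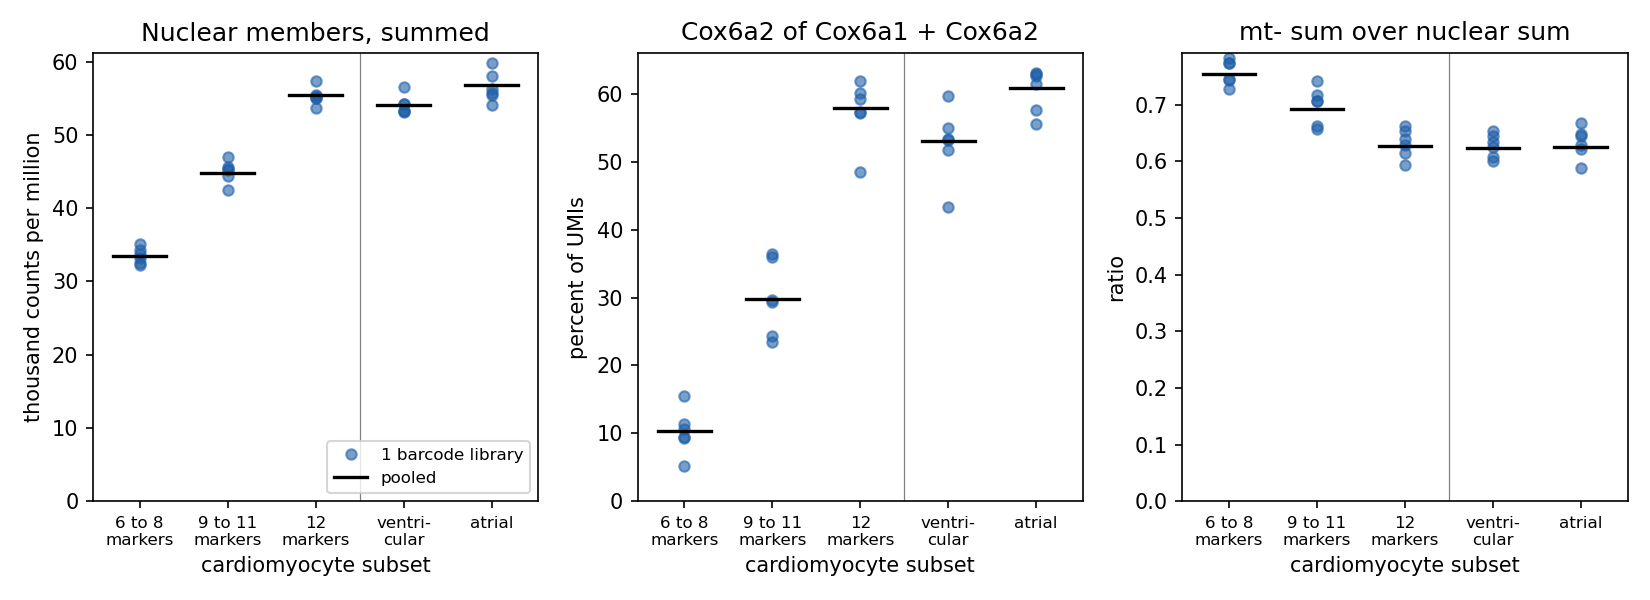
Levels in cardiomyocyte subsets, by number of gate markers (6 to 8, 9 to 11, 12) on the left of each panel and by chamber (ventricular, atrial) on the right, for the nuclear sum (CPM), the Cox6a2 share of its pair (percent) and the mitochondrial over the nuclear sum; lines are pooled values and points the 6 libraries. The nuclear sum and the Cox6a2 share are higher in cells with 12 markers (55397 CPM and 57.9%) than in cells with 6 to 8 (33437 CPM and 10.3%), and atrial cells lie above ventricular cells in the Cox6a2 share (60.8% against 53.1%).

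The 2 chambers had nearly the same oxidative message. Ventricular-gated cardiomyocytes (1525 cells) summed to 54141 CPM of nuclear members and atrial-gated ones (702) to 56768 CPM, a ratio of 0.954 (libraries 0.915 to 0.984). The mitochondrial sums were 33800 and 35542 CPM (0.951). Both ratios were below 1 in 6 of 6 libraries, so the direction repeats while the difference is small. The 914 cardiomyocytes in neither subset stood at 0.748 times the ventricular nuclear sum. They were also shallower, at a median of 28350 against 51419 UMIs a cell. Their cardiomyocyte gate markers summed to 0.698 times the ventricular level. The part of depth in these values was not tested.

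By gene, 2 of 104 members were at least 1.5 times higher in ventricular cells and none lower, where 5.05% of all genes were higher and 6.12% lower. Cox4i2 was higher, at 35.3 against 11.7 CPM, a ratio of 3.01 (libraries 2.501 to 4.36). The other was Ndufa4l2, at 4.62 against 2.24 CPM (2.06), with libraries from 1.15 to 8.16, a wide spread at low counts. Since Ndufa4l2 reached the level asked for only through neuron, 1 of 102 members was higher without it and Cox6a2, where 4.3% of the genes that reach the level without their highest class were. Isoforms of the same complex went opposite ways: Cox6a2 was at 478 against 697 CPM (0.685, libraries 0.592 to 0.806; past the fold without library 2, at 0.661, or library 5, at 0.664) and Cox7a1 at 112 against 144 CPM (0.774). Cox8b, the remaining muscle form and like Cox7a1 under the level asked for, was at 3.69 against 1.46 CPM (2.53, 1.85 to 3.51), above 1 in 6 of 6 libraries.

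The Cox6a2 share was 53.1% in ventricular and 60.8% in atrial cells. Among widely expressed members the ratio was highest for Ndufs6, an accessory subunit of complex I (391 against 269 CPM, 1.45, libraries 1.41 to 1.499), and for Sdha (191 against 142 CPM, 1.34). It was lowest for Ndufa7 (0.783). Complex II as a sum was 1.13 times higher in ventricular cells, above 1 in 6 of 6 libraries, opposite to the nuclear sum as a whole.

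Genes around the pathway did not all follow the members, and their counts stand beside 12.1% higher and 22.4% lower among all genes. Of 16 citrate cycle and pyruvate dehydrogenase genes 15 were higher in cardiomyocytes and none lower, with a median of 2.01. The largest ratio was that of Idh3a, the catalytic subunit of NAD-dependent isocitrate dehydrogenase, at 4.75. Only Suclg2, the GTP-forming succinyl-CoA ligase subunit, stayed under the fold, at 1.12. Without erythroid cells 14 of 16 were higher, where 9.47% of all genes were.

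Of 7 carriers and exchangers 6 were higher, with a median of 1.85. Slc25a4, the heart and muscle adenine nucleotide translocase, had the largest ratio at 4.79, with 3133 CPM in cardiomyocytes. Cycs, cytochrome c, stood at 2.87, and the outer membrane channel Vdac3 at 1.41.

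Of 11 genes that copy, keep or transcribe mitochondrial DNA, 8 had the level asked for and none of these passed the fold in either direction. Among all genes 12.1% were higher and 22.4% lower, and this list is small. The median of the 8 was 0.960, from 0.734 for Twnk, the mitochondrial helicase, to 1.11 for Slirp, an RNA-binding partner of Lrpprc. Tfam, the packaging and transcription factor, stood at 0.921. Of 34 assembly factors outside the naming rule 9 were higher and none lower, with a median of 1.31, where 12.1% of all genes were higher. Without erythroid cells 5 of 34 were higher, where 9.47% of all genes were, a small margin at this number of genes. Cox20 was at 2.52 and Cox19 at 0.808.

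Among 8 transcriptional regulators 2 were higher and 4 lower, where 12.1% and 22.4% of all genes were, with a median of 0.717 against 0.878 over all genes. Esrrg (188 CPM, 5.87) and Esrra (4.05), nuclear receptors known to act on these genes, were the higher ones. Esrra had the level asked for only through cardiomyocytes (8.63 CPM over the other 13 classes), and without it 1 of 7 was higher and 4 lower, beside 11.2% and 20.7% of the genes that reach the level without their highest class. The lower ones were Myc (0.0982), Pprc1 (0.567), Gabpb1 (0.575) and Nrf1 (0.613). Ppargc1a, the coactivator known for driving mitochondrial genes in heart, was under the mean level asked for but stood at 71.0 against 1.88 CPM, a ratio of 37.8 (35.4 to 40.4).

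In the last list, on uncoupling and stress, 3 of 8 were higher (12.1% of all genes) and 1 lower (22.4% of all genes). Chchd10, a small intermembrane protein, was at 799 against 27.4 CPM (29.1), and the ratio was 86.5 without erythroid cells. Higd1a and Higd2a, which assist the assembly of complexes III and IV, stood at 1.98 and 1.599. Ucp2 was lower at 0.368, and at 0.905 without erythroid cells.

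**Figure D5:**
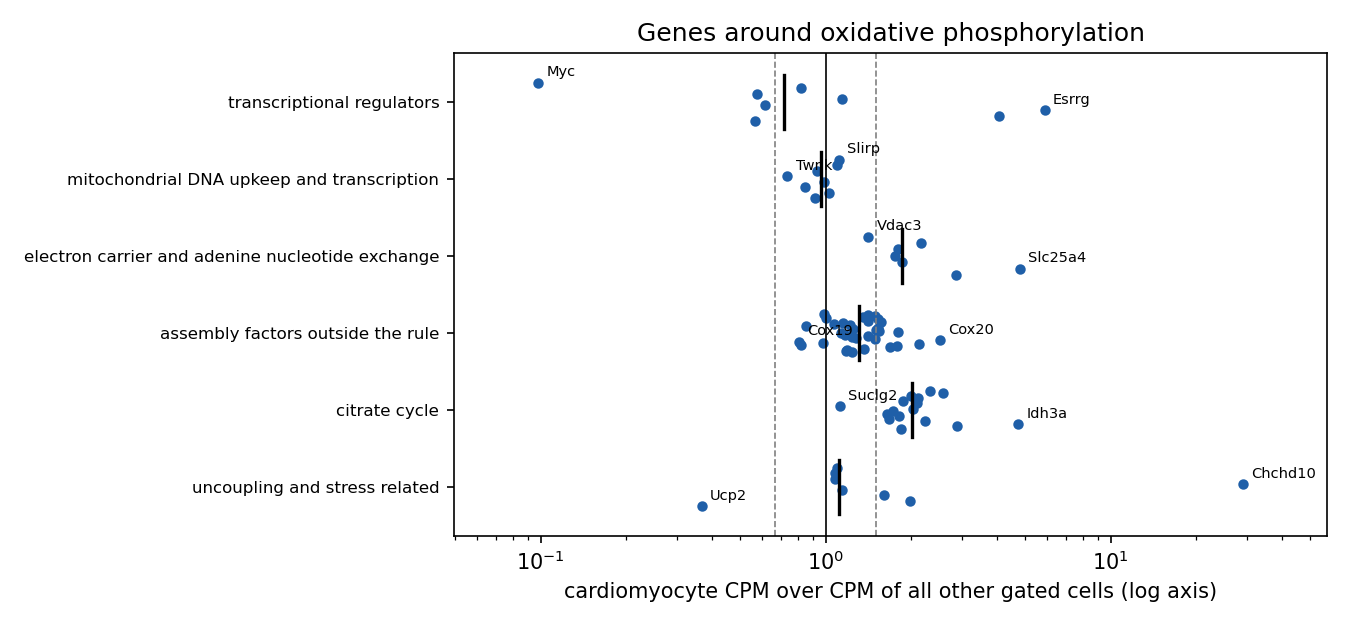
Each point is 1 gene of a list around oxidative phosphorylation: its CPM in cardiomyocytes over that in all other gated cells (log axis), for genes with a mean class level of at least 10 CPM; black bars are list medians and dashed lines 1.5-fold. Citrate cycle genes centre on 2.01, while genes of mitochondrial DNA upkeep lie between 0.734 and 1.11.

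Over the 14 classes most members varied with each other, and cardiomyocytes carried much of that likeness. The correlation of each nuclear member's log2(CPM + 1) with that of the other members summed had a median Pearson r of 0.908 over 91 members, and 50 were at 0.9 or more. The 5 below 0.5 were Cox6b2 (-0.27), Ndufaf2 (-0.12), Ndufa4l2 (0.09), Cox4i2 (0.40) and Ndufaf4 (0.41). With cardiomyocytes left out, the median was 0.683 over the 13 other classes, 32 members were below 0.5 and 13 of those below 0. The lowest were Ndufa6 (-0.88), Cox6b2 (-0.83) and Ndufs3 (-0.68). Among these 13 classes all of them were highest in erythroid cells, at 246, 91.6 and 210 CPM. Erythroid cells also had the lowest nuclear sum, with hemoglobin at 40.3% of their UMIs. The part of the erythroid class in these r values was not tested. Outside the members, genes among those most like the nuclear sum were Casq1, the calcium store protein of the sarcoplasmic reticulum (r = 0.972), Trdn, triadin of the calcium release unit (0.956), Fbxl22, an F-box protein (0.956), and Nppa, the atrial natriuretic peptide (0.946). These 4 genes had a mean class level of 10 CPM only through cardiomyocytes, at 0.379 (Trdn) to 3.09 CPM (Fbxl22) over the other 13 classes. That class thus enters both their choice and their r, and each r was lower without it.

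For these genes, r without cardiomyocytes was 0.739 for Casq1, 0.635 for Fbxl22, 0.583 for Trdn and 0.362 for Nppa. The points share libraries and CPM denominators.

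The X-linked members are 3 in number, and their cardiomyocyte levels did not set library 1, the library with Xist, apart. Ndufb11 gave 437, 435, 431, 428, 448 and 426 CPM, Ndufa1 161, 186, 158, 196, 218 and 195 CPM, and Cox7b 972, 928, 898, 907, 1002 and 927 CPM in libraries 1 to 6. In each of the 3 genes library 1 lies inside the range of the others. Over all kept cells library 1 was above every other library for Ndufb11 (272 against 248 to 264 CPM) and Cox7b (481 against 414 to 465 CPM), and inside their range for Ndufa1 (98.9 against 91.7 to 120 CPM). The sum of all nuclear members over these cells was also highest in library 1, at 29120 CPM against 26321 to 28991 CPM.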

How the data were processed

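The authors deposited 1 matrix of raw UMI counts per gene and barcode for all 6 samples. Per the submitters' processing notes, CASAVA 1.8, Cell Ranger 5.0.0 and Seurat 4 were used with mm10; which settings were used is not given in the sources used here. The values are UMIs per gene and were read as RNA, as in the sample titles, although the free-text descriptions speak of chromatin. With no file pairing libraries and samples, the planned edgeR test of streptozotocin against vehicle was not run, and libraries were described 1 by 1 (at least 20 cells of a class).

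From the deposited counts, a class gate asked for at least 2 UMIs of at least 50% of its markers, rounded up (6 of 12 for cardiomyocytes, where 126 cells sat at the minimum and 240 lay 1 marker below it). After gate overlap was seen, the smooth muscle and endocardial cushion gates were counted only in cells passing no other gate. No doublet caller was run, and cells passing several gates were left out. Of 17 classes, 14 with at least 100 cells were ordered. Intervals are exact Poisson (CPM) and Clopper-Pearson (shares and ratios) at 95%. Genes with a mean class CPM of at least 10 were compared, and 1.5-fold was called. Of the 8986 such genes, 200 were changed by 2-fold in simulated counts for cardiomyocytes over other gated cells. Of these 100% were called, as were 0 of the unchanged genes, and 95.1% of intervals held the true ratio. The simulated counts were Poisson draws, as the intervals assume, with no spread between cells or libraries. They do not show how often calls in the real counts are right. Ventricular and atrial subsets asked for 3 of 5 markers.

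The members, marker lists and related gene lists were chosen with earlier results of these data known. Named genes are the isoform pairs, the most abundant and the highest and lowest ratio gene of each complex, the mitochondrial and X-linked members, genes of each related list at its ends, and the 5 non-members most correlated with the nuclear sum. A gene under this rule is not reported here. Others (Ndufaf1, Ndufa2, Sdhc, Ndufs6, Sdha between chambers, Tfam, Cycs, Ppargc1a, Higd1a, Higd2a, Ndufa6, Ndufs3) were named after their values were seen. Gene positions are those of GENCODE M21, matched by gene ID for 108 of 108 members. Alternatives covered the cell limits, gates, thinning, shared barcodes, denominators, filters, fold and single libraries. Python 3.11.15, numpy 2.4.6, scipy 1.17.1 and pandas 2.3.3 were used.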

Additional observations from a re-analysis of the deposited data

How the results depend on the processing

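Over 653 values recomputed under other settings, 345 stayed within the counting interval (counts of genes within 1.5 times), 307 moved beyond it and 1 reversed. With these depths the interval is narrow, and 23 values moved by over 1.5 times. The reversal was the Cox6b2 ratio, from 0.512 to 1.31 without erythroid cells, and of the 90 members called in cardiomyocytes it was the only one to reverse in any setting. The rank of erythroid cells also turned, from lowest to next after cardiomyocytes in both sums with hemoglobin left out of the denominator. No paired analysis was possible because no library of the matrix is tied to a sample, so the replicate block was not run. Values are given in the order cardiomyocyte nuclear sum (CPM), nuclear ratio over other gated cells, mitochondrial ratio, ventricular over atrial nuclear ratio, Cox6a2 share, Cox7a1 share and mitochondrial over nuclear sum, with those that did not move left out. With at least 1000 genes and at most 20% mt- UMIs, these were 52165, 2.14, 1.47 and, for the last, 0.648. With 1 marker more a gate they were 52179, 2.16, 1.47, 0.963 and, for the last, 0.644. With 1 marker fewer they were 52698, 2.14, 1.46, 0.934, 54.2% and, for the last, 0.638. Thinned to 10000 UMIs a cell (68 shallower cells left out) they were 51596, 2.08, 1.39, 0.959, 53.6% and, for the last, 0.646. Without barcodes shared between libraries they were 52028, 2.11, 1.45, 0.966, 52.5%, 9.47% and 0.640. On UMIs without mt-, hemoglobin and marker genes the first 4 were 56117, 2.06, 1.41 and 0.947, and as medians over libraries 51864, 2.13, 1.45 and 0.962.

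Of the settings chosen after seeing the data, counting only cells that pass 1 of all gates gave 51079, 2.10, 1.46, 0.908, 55.9%, 10.52% and 0.651. Leaving out cells above 2 times their library's median UMIs gave 52290, 2.10, 1.42, 0.976, 55.0%, 10.3% and 0.645. The nuclear and mitochondrial ratios were 2.05 and 1.38 without erythroid cells, and 1.98 and 1.35 with hemoglobin left out of the denominator. Leaving out each library in turn gave 51795 to 52494 CPM, 2.12 to 2.15, 1.44 to 1.48, 0.950 to 0.959, 52.8% to 55.0%, 9.504% to 9.91% and 0.636 to 0.652.

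Counts of called members depended more on the setting. At a fold of 2, 51 nuclear and 0 mitochondrial members were higher in cardiomyocytes, where 6.62% of all genes were. At 1.5-fold, 3 of 13 mitochondrial members were higher after thinning (11.4% of all genes), 3 on UMIs without mt-, hemoglobin and marker genes (11.2%), 3 without erythroid cells (9.47%) and 1 without hemoglobin (10.1%). Without a library in turn, 84 to 85 nuclear and 4 to 5 mitochondrial members were higher, as were 11.3% to 12.4% of all genes. The 1 nuclear member called lower became 2 with no filter on low levels, where 41.4% of all genes were lower, and 0 at a mean class CPM of at least 50 (18.1% of all genes lower), at a fold of 2 (10.6%), or without cells of high UMI count (26.1%). The second member lower with no filter was Cox8c, with no UMI among cardiomyocytes and 0.0430 CPM in endoderm. Cox6b2, the 1 called in the main setting, had a ratio of 0.512, short of a fold of 2. Its mean class level was under 50 CPM. Erythroid cells, where Cox6b2 was highest, had a median of 65069 UMIs a cell. The cause of the change without cells of high UMI count was not tested. Asking for the mean level without a gene's highest class, a setting also chosen after seeing the data, left 1 member in place of 2 higher in ventricular cells. Isoforms at a few CPM (Cox8b, Cox7b2) are limited by depth.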
